A study of Mus musculus with 2 samples.

Results

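The genes described are Hba-a1 and Hba-a2, which encode the alpha chains of adult haemoglobin, and Klf1, which encodes an erythroid zinc finger factor that binds CACCC sequences. They are 3 genes named by symbol, out of 27025 symbols with a RefSeq promoter sequence. They were studied through 2 windows fixed by coordinates (mm9). The alpha globin window covers 120000 bp of chromosome 11, begins beside the promoter of Il9r and holds the genes and the stretch upstream of them. The Klf1 window covers 50000 bp of chromosome 8 around the start sites of its neighbours Gcdh and Dnase2a. The study has 1 group, in which chromatin of HPC-7 cells, a mouse blood progenitor line derived from ES cells and grown with conditioned mSCF, was fixed with formaldehyde and precipitated with antiserum against Scl. DNA from 1 precipitation was sequenced as 3 portions. Lanes 7 and 8 of one site make up sample 1 (mm9), and the portion read elsewhere is sample 2 (mm8). The samples are technical portions of 1 immunoprecipitation, and no control library was used here. All intervals and p-values below therefore cover counting error only.

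Scl (Tal1) belongs to the basic helix-loop-helix factors. It binds E-box sequences with a partner and in red cell precursors joins GATA1, LMO2 and LDB1 in a complex that also contacts GATA sequences. The alpha globin genes are switched on late in erythroid development by enhancers that lie upstream of them, several inside introns of the neighbouring gene Nprl3. Klf1 is itself a target of GATA1 and then acts on globin and other erythroid genes.

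The promoters of the members carry letters that match both kinds of site, and are shown because the question is whether Scl reads gathered there. Each sequence is the 250 bases before the start site from RefSeq (GRCm38.p6, plus strand), with capitals marking GATA matches (AGATAA in one form, AGATAG in another, TGATAA in a further form and TGATAG in the last) and E-box matches (CANNTG) on either strand.
Hba-a1, chr11:32283422-32283671: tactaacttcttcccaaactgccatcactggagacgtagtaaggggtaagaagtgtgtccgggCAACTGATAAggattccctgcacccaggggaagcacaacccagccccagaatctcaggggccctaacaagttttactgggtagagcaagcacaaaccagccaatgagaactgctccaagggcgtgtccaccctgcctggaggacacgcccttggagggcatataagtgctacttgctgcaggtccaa
Klf1, chr8:84901732-84901981: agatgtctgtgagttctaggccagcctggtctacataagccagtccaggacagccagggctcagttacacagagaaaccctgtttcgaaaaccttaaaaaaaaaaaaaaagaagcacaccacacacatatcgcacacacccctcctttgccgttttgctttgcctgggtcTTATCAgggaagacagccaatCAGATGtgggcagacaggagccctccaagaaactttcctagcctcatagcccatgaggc
Hba-x, chr11:32276350-32276599: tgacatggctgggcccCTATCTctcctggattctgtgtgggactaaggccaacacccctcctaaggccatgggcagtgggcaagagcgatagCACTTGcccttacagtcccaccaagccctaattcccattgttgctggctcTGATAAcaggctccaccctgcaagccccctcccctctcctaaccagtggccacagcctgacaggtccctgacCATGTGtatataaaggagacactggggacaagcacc

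In Hba-a1 the E-box CAACTG lay at -187 to -182 from the start site and overlapped the GATA match TGATAA at -183 to -178. The 300 base promoter entries of Hba-a1 and Hba-a2 shared an identical run of 297 bases, so the same letters stood in Hba-a2, at -190 to -185 and -186 to -181. Klf1 had its GATA match on the minus strand at -80 to -75 and the E-box CAGATG at -59 to -54. Hba-x, the embryonic zeta globin gene at the upstream end of the cluster, had 2 GATA matches and 2 E-boxes. Such matches are common: of the 32851 RefSeq promoters, 26.5% held a GATA match and 66.2% an E-box in the same 250 bases. An E-box followed by a GATA match after 7 to 9 bp was found in 0.563% of promoters and in none of the 3 members or Hba-x. CACCC, the letters that Klf1 itself binds, was found in 52% of promoters, with 2 matches in Hba-a1, 2 in Hba-a2, 2 in Hba-x and 1 in Klf1.

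No uniquely placed read of sample 2 lay inside the promoter sequence of any member. Only sample 2 has read sequences, and its uniquely placed reads were matched without a mismatch to the 300 bases around each start site. For Hba-a1 and Hba-a2 the 0 reads carry no information, because a read inside their shared 297 bases matches both genes and is not placed uniquely. Klf1 had 0 distinct reads, which allows up to 3.69 uniquely placed reads by the exact Poisson 95% interval. The genome average amounts to 0.588 reads per promoter, and 64.9% of all promoters also had 0, so the depth could not show a difference at Klf1. Reads of sample 2 with several matches in the genome were deposited apart, without positions. With up to 2 mismatches, 0 of these 1113231 reads matched the Hba-a1, Hba-a2 or Hba-x promoter. The Klf1 promoter was matched by 20 of them, which were not counted. Reads from part of the Klf1 promoter may thus have no unique place, and the genome average above makes no allowance for that. How much of it can be read uniquely was not tested.

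Reads at the promoters of other erythroid, globin and neighbouring genes were also few. Of 57 listed genes, 45 had a RefSeq promoter, and 17 of these had at least 1 read in a promoter. By promoter this was 19 of 54 (35.2%), with both alpha globin promoters counted among those at 0, against 35.1% of all promoters. The list of 25 erythroid genes had 9 of 22 promoters with a read, and the other globins had 1 of 7, a single read at Hbb-bs, an adult beta globin gene. Icam4, a red cell surface protein, had the most of these 54 promoters with 4 reads, a number reached by 1.08% of all promoters. The highest 200 bp within 1 kb of it held 3 reads, which was 3.26-fold over background. The promoters that reads placed in mm8 included Tfrc, the transferrin receptor through which red cell precursors take up iron. The highest 200 bp within 1 kb of Tfrc held 4 reads, which was 9.09-fold over background (adjusted p = 0.932, exact Poisson test over all windows). At Epb41, which encodes a protein of the red cell skeleton, a region called in sample 2 lay 1.21 kb from one promoter and 4.43 kb from another. Among the other listed genes with a promoter placed by reads without a mismatch, the nearest region called in sample 2 was 15.4 kb away, at Tfrc. Outside the alpha globin and Klf1 windows, listed promoters without such a read were not placed, so calls near them were not looked for. How often any promoter has a call as near as at Epb41 was not determined.

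For the wider windows, distinct reads (each start and strand once) were moved towards the fragment centre and counted in 200 bp. Sample 1 had 5632832 distinct reads and sample 2 had 4150610, so an average 200 bp held 0.593 and 0.437 reads. Each count was set against the larger of that average and the surrounding 10 kb. A called region needed an adjusted p under 0.01 (one-sided exact Poisson test, Benjamini-Hochberg over all windows of the genome), 5-fold enrichment and at least 20% of reads on each strand. By that rule 0.00732% of the windows of sample 1 and 0.00431% of those of sample 2 were called, giving 1517 and 784 regions. The builds were joined by the shift at which read ends of both samples coincided. That shift was 0 bp at the alpha globin window (46 coincident ends, 11 at the next best shift) and 366206 bp at the Klf1 window (44, and 12 at the next best), and was the same on both strands.

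In the alpha globin window, Scl reads passed the threshold at a single place, upstream of the cluster and in sample 1 alone. In sample 1 the region chr11:32165151-32165450 (mm9) was called, and it was the only region called in the alpha globin window in either sample. Its best 200 bp, chr11:32165201-32165400, lay at -11.3 kb from the Hba-x start site and held 10 distinct reads in sample 1 (exact Poisson 95% interval 4.8 to 18.4), 10.2-fold over the local background (adjusted p = 0.00153). The same 200 bp had 6 reads in sample 2 (2.2 to 13.1), or 11.5-fold, short of the threshold (adjusted p = 0.152, exact Poisson test). The local averages were 0.98 and 0.52 reads, below the lower bounds of both intervals. The 200 bp were picked for having the most reads of both samples together, and the intervals do not allow for that choice. The fold had a mean of 10.9 ± 0.944 (SD, n = 2 technical portions).

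The called region lay between the start sites of Mpg and Hba-x, the stretch in which RefSeq places Nprl3. It was 38.8 kb beyond the start site of Mpg, which encodes a DNA glycosylase. Whether it coincides with a known enhancer was not tested, since enhancer coordinates were not used here. No read end (0) within the 400 bp around the site was shared by the samples. Its reads in sample 1 were divided evenly, with 5 on each strand. In sample 2 there was 1 plus read and 5 minus reads, which is under the 20% needed on each strand. With 200 bp more on either side, sample 1 had 7 plus and 5 minus ends, the minus ends 69 bp beyond by the median. Sample 2 had 2 plus and 5 minus ends there, at a distance of 263 bp. Lane 8 gave 7 of the 11 reads within 200 bp of the centre in sample 1, a share of 63.6% (exact binomial 95% interval 30.8 to 89.1) beside a lane 8 share of 71.4% over the genome. Sample 1 gave 11 of the 17 reads of both samples (64.7%, 38.3 to 85.8), beside 57.6% over the genome. The call rested on both lanes together: lane 7 alone and lane 8 alone each called 0 regions, as did sample 1 with reads not moved. Among the 1517 regions of sample 1 it was ordinary, since 62.3% had as many reads and 77.6% as high a fold.

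Part of the DNA under this site could be read from sample 2. Its mismatch-free reads covered 159 of the 400 bases at chr11:32165101-32165500 (mm8, plus strand) in 3 runs, shown because they hold the only sequence from the site itself, with GATA and E-box matches in capitals.
Run at chr11:32165184-32165215: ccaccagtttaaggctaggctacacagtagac
Run at chr11:32165275-32165338: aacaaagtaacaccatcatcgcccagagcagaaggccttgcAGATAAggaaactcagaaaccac
Run at chr11:32165370-32165432: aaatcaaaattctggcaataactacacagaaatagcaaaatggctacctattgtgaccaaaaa
The middle run held 1 GATA match, AGATAA, which began 16 bp beyond the centre of the window. An ETS core, AGGAAA, shared its last base and ran on from it. No E-box was found in these runs. The remaining bases were not covered, so this says nothing of the rest of the site. Of 5 distinct mismatch-free reads of 32 bases at the site, 1 held a GATA match, against 4.42% of all 2777553 such reads, and 0 held an E-box, against 16.8%.

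The other sites of the alpha globin window were weak. In all, 18 separate windows held at least 5 reads in either sample, and the 8 with the most reads are described. After the called site, they had 3 to 7 reads in sample 1 and 2 to 5 in sample 2, with folds of 2.54 to 5.95 and 1.96 to 6.1. The smallest adjusted p among them was 0.727 in sample 1 and 1 in sample 2 (exact Poisson test). The site at chr11:32112551-32112750 had 7 reads in sample 1 and 2 in sample 2, at 4.55-fold and 1.96-fold. It lay at -64 kb from Hba-x and -13.9 kb from the start site of Mpg. The seventh site, at -58.1 kb from Hba-x, had 3 and 5 reads. Moved by 1 step of 50 bp it had 6 in sample 2, as many as the called site, and 2 in sample 1.

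Between the start sites of Mpg and Hba-x, 3 more places are described. The fifth site, chr11:32131651-32131850 at -44.9 kb from Hba-x, had 5 reads in sample 1 and 4 in sample 2, at 3.85-fold and 4.08-fold, and lay 5.25 kb beyond the start site of Mpg. The window at chr11:32155151-32155350, at -21.4 kb from Hba-x, had 5 reads in sample 1 and 3 in sample 2, at 5.95-fold and 5.56-fold, and its adjusted p was 0.854 in sample 1 and 1 in sample 2 (exact Poisson test). The window at chr11:32169101-32169300, at -7.4 kb, had 4 reads in each sample, at 5-fold and 9.16-fold. It was picked after its values were seen, as one of 6 separate windows with at least 4 reads in both samples. The Klf1 window, of 50000 bp, held 4. Apart from the called site, no place named in the alpha globin window was called in either sample.

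**Figure D1:**
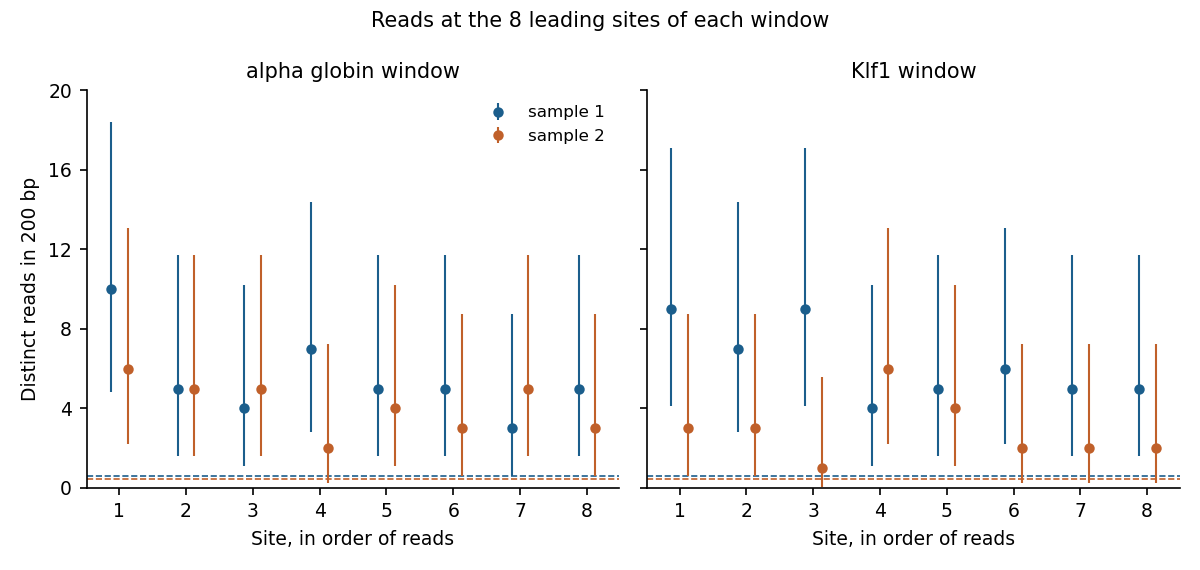
Distinct reads in 200 bp (vertical axis) at the 8 leading sites of the alpha globin window (left) and the Klf1 window (right), in order of the reads of both samples. Points are the counts in sample 1 (blue) and sample 2 (orange), bars are exact Poisson 95% intervals and dashed lines the genome averages. Site 1 of the alpha globin window has 10 and 6 reads, and the intervals of all other sites overlap with it.

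Read density around the alpha globin genes was nearer to the genome average than in the stretch upstream, with overlapping intervals. The densities were not corrected for sequence that Hba-a1 and Hba-a2 share, where a read has no unique place. Between the start sites of Mpg and Hba-x there were 4.33 reads per kb in sample 1 (95% 3.77 to 4.95, exact Poisson) and 3.17 in sample 2 (2.7 to 3.71), which is 1.46 and 1.45 times the genome average. From Hba-x to Hbq1b, the stretch in which RefSeq places Hba-a1, the densities were 2.99 (2.03 to 4.25) and 1.83 (1.1 to 2.86), or 1.01 and 0.839 times the genome average. No 200 bp between Hba-x and Hbq1b, a theta globin gene, held more than 4 reads in sample 1 or 3 in sample 2. From Hbq1b to the end of the window, where Hba-a2 and Hbq1a lie, the highest 200 bp held 6 and 5 reads, at overall densities of 3.72 and 2.75 reads per kb.

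That part of the window also held its longest stretch without any read end in either sample. It ran for 2910 bp, chr11:32195748-32198657 (mm9), where the density of the window would give 12.9 reads in sample 1 and 9.26 in sample 2. The promoters of Il9r, Mpg, Hba-x and Hbq1b in mm8 were all shifted by -100000 bp from GRCm38. If that shift also holds for the members, the Hba-a2 promoter falls inside this stretch. The Hba-a1 promoter would then fall where the 200 bp windows held 0 reads in both samples. The median distance between neighbouring read ends was 71 bp. The next longest, of 2104 and 1935 bp, lay just upstream of Hba-x at chr11:32171806-32173909 and chr11:32174352-32176286. Reads that match both copies of a duplicated sequence have no unique place, and how much of these stretches can be read uniquely was not tested. A count of 0 there does not show that Scl was absent.

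No region was called in the Klf1 window in either sample. The site with the most reads, chr8:87448951-87449150 (mm9), had 9 reads in sample 1 (exact Poisson 95% interval 4.12 to 17.1) and 3 in sample 2 (0.619 to 8.77), at 5.06-fold and 2.94-fold, with a mean of 4 ± 1.5 (SD, n = 2 technical portions). The adjusted p was 0.248 in sample 1 and 1 in sample 2 (exact Poisson test). It lay 16.4 kb beyond the start site of Dnase2a, the neighbour of Klf1 that encodes the nuclease which digests the expelled nuclei of red cell precursors, and so on the far side from Klf1. The 2 samples differed on which site led, since sample 2 had its highest count at chr8:87444901-87445100, with 6 reads there against 4 in sample 1. Their intervals overlapped at both sites.

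The site nearest to passing lay beside Gcdh, the other neighbour of Klf1, which encodes a mitochondrial dehydrogenase. At chr8:87417251-87417450, at -0.47 kb from the Gcdh start site in chromosome order, sample 1 had 9 reads at 7.14-fold (adjusted p = 0.0478, exact Poisson test) and sample 2 had 1 read at 1.19-fold. At a threshold of 0.05 the window would have 1 region in sample 1 and 0 in sample 2. Further from Klf1, at -1.67 kb, chr8:87416051-87416250 had 7 and 3 reads at 5.47-fold and 3.66-fold.

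Between the start sites of Gcdh and Dnase2a, the stretch in which RefSeq places Klf1, sample 1 had 73 reads and sample 2 had 57. These are 4.92 reads per kb (3.86 to 6.19) and 3.84 (2.91 to 4.98), or 1.66 and 1.76 times the genome average. The highest 200 bp between them held 6 reads in sample 1 and 4 in sample 2. Sample 1 reached 6 reads at 3 places, at -6.85, -6.00 and -3.8 kb from the Dnase2a start site, where sample 2 had 1, 1 and 2. No read placed the Klf1 promoter in mm8, but its neighbours Gcdh and Dnase2a were both shifted by 2890105 bp from GRCm38. If that shift holds between them, the place at -6.85 kb lies in the Klf1 promoter sequence and the others do not. That place was called in neither sample. The place at -3.8 kb, chr8:87428751-87428950, was among the 8 leading sites. Its folds were 4.41 and 2.13, with adjusted p = 0.854 and 1 (exact Poisson test). In all, 21 separate windows of the Klf1 window held at least 5 reads in either sample, and the 8 leading ones had 4 to 9 reads in sample 1 and 1 to 6 in sample 2.

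**Figure D2:**
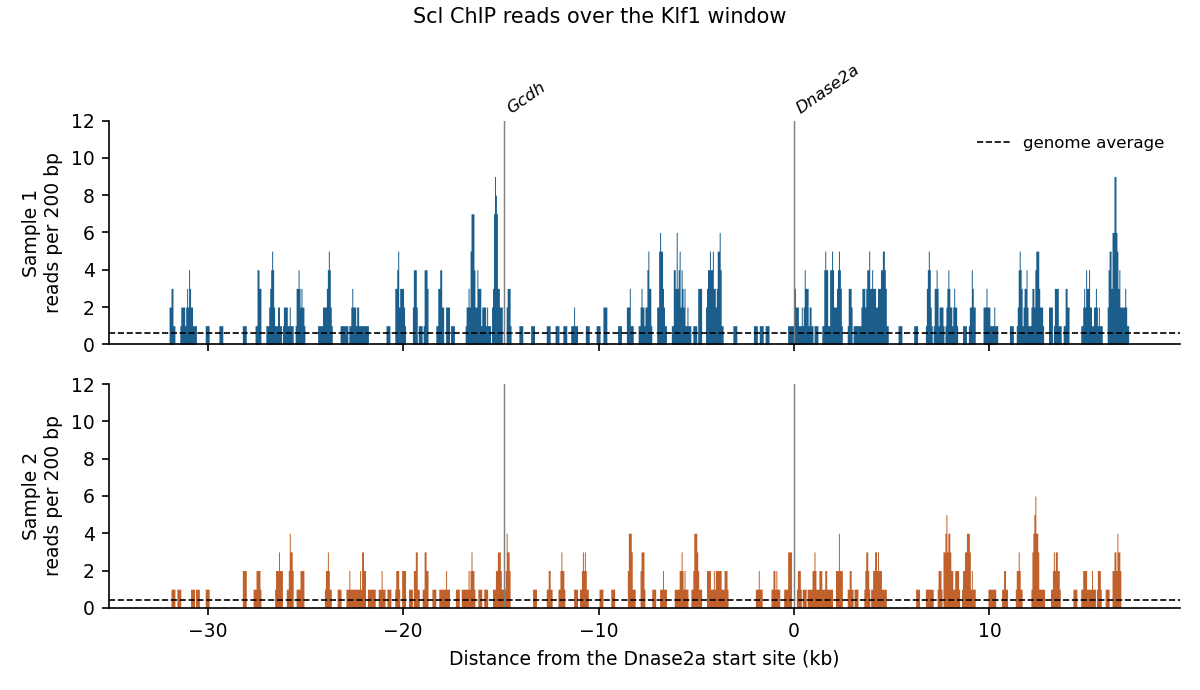
Distinct reads per 200 bp (vertical axis, steps of 50 bp) across the Klf1 window, by distance in kb from the Dnase2a start site, in sample 1 (top) and sample 2 (bottom). Klf1 lies between the grey lines of Gcdh and Dnase2a, where no 200 bp exceeds 6 reads in sample 1 or 4 in sample 2. Dashed lines are the genome averages of 0.593 and 0.437.

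Both windows were denser in reads than the genome average, and the local background enters the test. The alpha globin window held 535 reads in sample 1 and 383 in sample 2, or 4.46 and 3.19 per kb, and 8.6% and 7.31% of bins of 120000 bp in the genome were as dense. The Klf1 window held 327 and 211 reads, or 6.54 and 4.22 per kb, with 1.44% and 1.88% of bins of 50000 bp as dense. Among bins of the same chromosome these shares were 8.79% and 11.3% for Klf1, and 11.2% and 7.79% for the alpha globin window. At the median local background a call needed 9 reads in sample 1 and 8 in sample 2 in the alpha globin window, and 11 and 9 in the Klf1 window. At the lowest local background of either window 8 reads sufficed in sample 1 and 7 in sample 2, and fewer could not be called at this depth.

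Set against the genome, few windows of these sizes held a call. At least 1 called region was found in 6.41% of bins of 120000 bp in sample 1 and in 3.34% in sample 2, and in 2.81% and 1.47% of bins of 50000 bp. A 200 bp window with 10 or more reads, as at the alpha globin site, occurred in 4.58% of bins of 120000 bp in sample 1. In sample 2, 1 with 6 or more occurred in 19.5% of bins of 120000 bp. In the Klf1 window the highest count of 9 in sample 1 was reached in 3.35% of bins of 50000 bp, but in 10.2% of those on chromosome 8. The nearest other called regions of sample 1 lay 1955 and 1744 kb from the edges of the alpha globin window. For the Klf1 window they lay 145 and 731 kb away, and the nearer had 26 reads at 11.3-fold in sample 1 and 18 at 12.3-fold in sample 2.

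**Figure D3:**
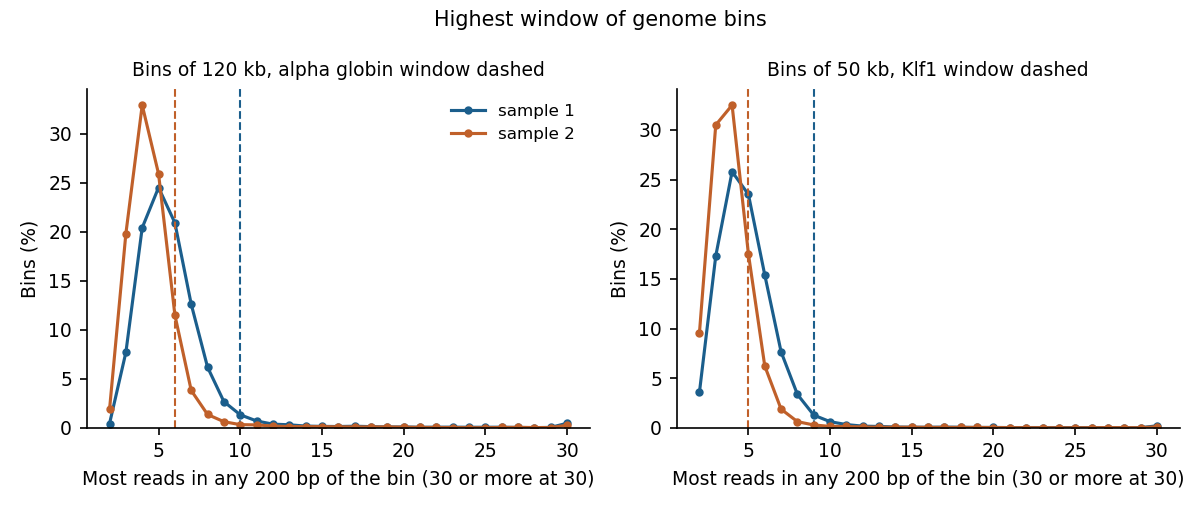
Share of genome bins (vertical axis, percent) by the most reads found in any 200 bp of the bin (horizontal axis, 30 or more shown at 30), for bins of the size of the alpha globin window (left) and the Klf1 window (right). Dashed lines mark the windows themselves, at 10 and 6 reads for alpha globin and 9 and 5 for Klf1 in samples 1 and 2, with windows aligned to each build. The median bin of the alpha globin size had 5 reads in sample 1 and 4 in sample 2.

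Over the 16 sites described, the split of reads between samples ran from 40% to 81.8% from sample 1, and all 16 exact binomial 95% intervals held the genome share of 57.6%. The lane 8 share ran from 50% to 100%, and all 16 intervals held 71.4%. With 8 to 17 reads a site in both samples together, these intervals are wide.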

How the data were processed

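The text deposited with the files says that the authors aligned sample 1 with the Solexa software to mm9 and sample 2 with Eland to mm8. No source used here gives their versions. Sample 1, as deposited, has an alignment score per read, and whether all its reads are uniquely placed is not stated. Sample 2, as deposited, has, per unique read, counts of genome matches with 0, 1 and 2 errors. Sample 1 held 5938819 reads (94.8% distinct) and sample 2 held 4296527 (96.6% distinct).

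Each start and strand was counted once. Fragment length, the distance between 80 and 300 bp with the most plus and minus pairs (running mean of 21 bp), was 118 and 126 bp, and reads were moved by 59 and 63 bp. A one-sided exact Poisson test was applied to 200 bp windows every 50 bp (scipy 1.17.1, effective genome 1.9e9 bp). Windows within 200 bp were merged. The caller was tested on simulated data with a uniform background, unlike the denser windows described here, and the outcome is not used as support. Start sites were placed in mm8 by sample 2 reads with at most 2 mismatches, a looser rule than the exact matches planned, since exact matches placed no globin gene of the cluster: Hba-x and Hbq1b rest on 1 read each. Coordinates were not converted between builds otherwise, and where the member promoters would fall rests on the shift of their neighbours. Bins under 0.5 reads per kb were left out. RefSeq promoters are of GRCm38.p6.

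Sites named were all called regions and the 8 windows with the most reads among those with at least 5 in either sample. The members and lists were chosen with earlier results of these data known.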

Additional observations from a re-analysis of the deposited data

How the results depend on the processing

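The call in the alpha globin window of sample 1 was kept in 11 of 14 alternatives and fell to 0 regions with reads not moved, with lane 7 alone and with lane 8 alone. The lanes hold fewer reads, and the cause of the former was not tested. Settings that only loosen the rule (adjusted p under 0.05, fold of at least 3, no rule on strands) could not lose the call. A fold of at least 10 could not add a region where there was none. Sample 2 had 0 regions in the alpha globin window in all 12 alternatives. With all reads counted, its smallest adjusted p there was 0.00255 (exact Poisson test). That is under the threshold for p, so another part of the rule was not met, and which part was not tested. In the Klf1 window sample 1 had 3 regions against the genome average only and 1 at an adjusted p under 0.05, and 0 in the other 12 alternatives. Sample 2 had 0 in all 12. The mean fold of the leading alpha globin window, 10.9, became 12.4 with all reads counted, 8.89 with reads not moved, 13.5 with a local background of 50 kb, 15.3 against the genome average only, 6.17 in windows of 400 bp, 14.1 with only reads without a mismatch, 15.8 with lane 7 alone and 9.62 with lane 8 alone. Leaving out a sample gave 5.77 to 10.2, the lower value at another window of sample 2 with as many reads. That of Klf1, 4, became 11 against the genome average only, 6.01 with lane 7 alone and 5.63 with lane 8 alone, and 5.26 to 7.14 when a sample was left out. The leading Klf1 window changed place among these settings. The splits between samples and lanes stayed within their intervals. Moving reads by 70 bp, chosen after seeing the data, changed no call. No paired analysis was possible because the samples form 1 group.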
